A study of Mus musculus with 8 samples.

Results

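The genes described here encode the DEAD and DEAH box RNA helicases, taken as every symbol made of Ddx or Dhx, a number and at most 1 further letter, with Ddx4 and Ddx3y left out. The rule reads only the symbol and found 52 genes among the 24421 in both count tables. The family was nevertheless put forward with results of both comparisons below already known. Counts and medians over the 52 genes are therefore a description, and nothing is read from how they compare with other genes. Adjusted p-values of single genes come from a fit over all genes. DEAD and DEAH box proteins are named after 4 amino acids of a conserved helicase motif, and they use ATP to unwind short RNA duplexes, to clamp RNA or to strip proteins from it. They act at nearly every step in the life of an RNA, from splicing and export to translation and decay, and many are needed to build ribosomes. DEAH proteins, unlike most DEAD proteins, move along the RNA strand, and several are switched on by cofactors that carry a G-patch domain. By function the 52 fall into 12 splicing helicases, 16 of ribosome biogenesis, 9 of mRNA export, translation and decay, 2 of the mitochondrial ribosome, 3 of viral RNA sensing and 10 others. Ddx26b is a member by its symbol only, since the annotation calls it Ints6l, a relative of an Integrator subunit.

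PolyA RNA of mouse embryonic stem (ES) cells was sequenced in 8 libraries, 2 in each of 4 groups. The Ubc9-depleted group is v6.5 cells treated with doxycycline (DOX) for 72 hours, and its Ubc9 control group, labelled WT, is v6.5 as well. Ubc9 is the conjugating enzyme that links SUMO, a small protein modifier, to its targets. H1 TKO cells lack the linker histone genes Hist1h1c, Hist1h1d and Hist1h1e and were compared with H1 control cells, labelled WT, both from an earlier publication. Every group was cultured in 2i/LIF, a naive-state ES cell medium, for 3 to 4 passages. How DOX removes Ubc9, whether the Ubc9 control cells received it, whether a line is 1 clone and whether the 2 libraries of a group were separate cultures is not stated in the labels, so each p-value measures only the spread between libraries. The comparisons used different library kits, and levels are not compared between them.

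Total counts ranged from 75972231 to 102780141 in the Ubc9 libraries and from 44441713 to 68445181 in the H1 libraries, so that 3 counts correspond to 0.0300 to 0.0685 CPM (counts scaled to library size with TMM factors). Hist1h1c, Hist1h1d and Hist1h1e had 0 counts in both H1 TKO libraries. The 8 ES cell markers checked were detected in every library. The 8 fibroblast markers summed to 34.8 and 36.7 CPM in the Ubc9-depleted libraries against 17.8 and 18.0 CPM in their controls, with none at 0. In H1 TKO they summed to 7.79 and 8.10 CPM against 12.8 and 21.7 CPM in the H1 controls, with 2 to 4 of the 8 at 0, Postn in all 4 libraries. Single markers did not all follow the sums. Pdgfrb alone was lower after Ubc9 depletion, at 4.72 and 4.37 CPM against 5.55 and 5.67 CPM. In H1 TKO Pdgfrb (2.72 and 2.33 against 8.14 and 12.9 CPM) and Col1a1 were lower. Thy1 was higher there, at 1.80 and 2.52 against 0.394 and 0.873 CPM, and the remaining markers stood at 0.198 CPM or less in the H1 libraries. The part of fibroblast RNA in the values below was not tested. Ubc9-depleted library 1 had counts on 23462 genes, and its 3 companions on 18584 to 19591. The H1 control libraries differed from each other with the GC content of the transcript, as described below for the helicases. Counts over the family without one of these libraries are given below, but not those of each function in the H1 comparison. In bulk RNA, fewer cells of a type and less RNA per cell cannot be told apart.

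Ddx42, which fell most in the Ubc9 comparison, and Ddx18, which rose most in the H1 comparison, are shown first by their promoters, since they have the largest called differences between the 2 comparisons in the family. Of the 52 members, 46 matched a RefSeq gene start in GRCm38.p6, and the 250 bases before each start were read 5′ to 3′ on the strand of the gene. Capitals mark CCAAT or its reverse complement ATTGG.
Ddx42, chr11:106216676-106216925, + strand: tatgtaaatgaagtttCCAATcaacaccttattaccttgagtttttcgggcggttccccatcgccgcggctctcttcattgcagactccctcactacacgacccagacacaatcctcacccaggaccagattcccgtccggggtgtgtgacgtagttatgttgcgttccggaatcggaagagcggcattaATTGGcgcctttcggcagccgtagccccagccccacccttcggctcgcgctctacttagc
Ddx18, chr1:121567981-121568230, - strand: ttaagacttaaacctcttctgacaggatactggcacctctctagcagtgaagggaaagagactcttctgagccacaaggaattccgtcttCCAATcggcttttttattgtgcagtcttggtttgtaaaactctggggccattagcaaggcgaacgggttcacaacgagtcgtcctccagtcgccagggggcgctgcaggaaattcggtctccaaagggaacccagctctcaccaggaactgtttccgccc
CCAAT lies 234 and, as ATTGG, 60 bases before this Ddx42 start and 160 bases before the Ddx18 start. RefSeq gives Ddx42 a second start, after chr11:106230416-106230665, whose 250 bases hold CCAAT 187 and CACGTG 148 bases before it and 1 CpG dinucleotide, against 19 in the sequence printed. A gene was counted as holding a motif where any of its starts did. A CCAAT match was found in 21 of the 46 member promoters (45.7%) and in 37.5% of 27025 genes with a promoter of the same length. On both strands, CACGTG was found in 5 members (10.9%) and 6.86% of genes, and the ETS motif CCGGAAGT in 6 members (13.0%) and 3.23% of genes. An NRF1-type motif was found in 2 members (4.35%) and 0.877% of genes. A palindromic promoter motif was found in 0% of members and 0.448% of genes, and a YY1-type motif in 0% and 0.359%. None of these 6 motifs contains another. With the highest value taken over the starts of a gene, the median member held 19 CpG dinucleotides and 60.6% GC, against 6 and 52.8% over all genes. These genes were not matched to the members in level or CpG content. A match is a description of the sequence and not a bound site.

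Levels per transcript length (RPKM, CPM per kilobase of exon) spanned more than 3 orders of size in the controls. In the Ubc9 controls Ddx3x, which helps unwind mRNA leaders at the start of translation, was first at 239 ± 12.1 RPKM (mean ± SD, n = 2 here and throughout). Ddx5, a splicing and transcription cofactor, followed at 231 ± 10.4 RPKM, within its spread of Ddx3x. Ddx21, which binds RNA polymerase I genes and the pre-rRNA, stood at 142 ± 12.3 RPKM, and Dhx9, a duplex-unwinding helicase of many nuclear complexes, at 115 ± 7.56 RPKM. Ddx42 came next at 108 ± 2.30 RPKM, within the spread of Dhx9, and Ddx17, the paralogue of Ddx5, after it at 92.1 ± 0.80 RPKM. The lowest were Dhx58 at 0.287 ± 0.030, Ddx25 at 0.121 ± 0.0072 and Ddx60 at 0.0528 ± 0.024 RPKM. In the H1 controls the order began with the paralogues Ddx39 (88.0 ± 5.36 RPKM) and Ddx39b (87.7 ± 13.5 RPKM), both loaders of mRNA export factors, followed by Ddx5 (73.1 ± 18.3 RPKM). The first 3 did not differ beyond the spread of Ddx5. Ddx25, Dhx58 and Ddx60 closed the order there as well, at 0.654, 0.185 and 0.0076 RPKM.

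**Figure D1:**
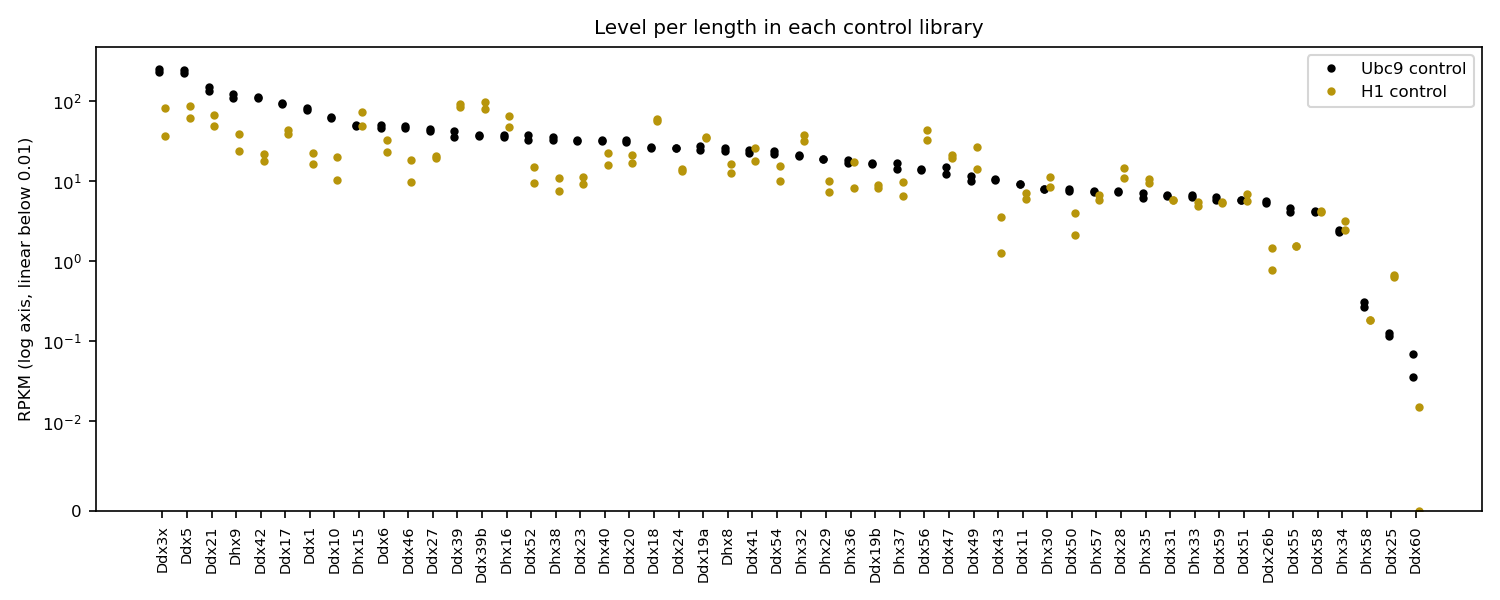
Level of each of the 52 helicase genes per length of exon (RPKM, log axis with a linear part at its foot) in the Ubc9 control and H1 control groups. Each library is a point, and genes are ordered by their mean in the Ubc9 controls. By mean, Ddx3x leads the Ubc9 controls at 239 RPKM and Ddx39 the H1 controls at 88.0 RPKM, while Dhx58, Ddx25 and Ddx60 are lowest in both.

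The Ubc9 comparison sets DOX-treated, Ubc9-depleted cells against cells labelled WT, and SUMO conjugation itself was not measured. If the controls received no DOX, its own effect cannot be told apart from that of the depletion. Ddx42, a splicing helicase that binds the SF3B part of the U2 particle, fell most in the family. Its level was 465 and 451 CPM in the Ubc9 controls and 181 and 207 CPM in the depleted libraries. The groups were far apart, with means of 458 ± 9.73 and 194 ± 18.9 CPM, so that the level was 2.36-fold lower after depletion. On the log2 scale the change was -1.24 ± 0.13 (SE), with an adjusted p of 1.1e-08 in edgeR's quasi-likelihood test with Benjamini-Hochberg adjustment, which gave all adjusted p-values below. It passed in 11 of 11 alternative analyses, with log2 changes from -1.42 to -1.05 and adjusted p-values from 4.76e-27 to 0.00168. In the annotation Ddx42 lies on chromosome 11, from 106216926 to 106249139 on the + strand of GRCm38, and 0.0252% of the 50-base words of its transcript recur in other genes.

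All 52 members were tested in the Ubc9 comparison, and 2 rose and 18 fell at an adjusted p under 0.05, while 43 (82.7%) had a change below 0. Of all 16499 genes tested 21.1% rose, 15.0% fell and 45.5% had a change below 0. Of the 6481 other genes of like level, between 19.3 and 389 CPM, 7.82% rose, 26.8% fell and 72.4% had a change below 0. The median log2 change was -0.19 over members, 0.06 over all genes and -0.15 over genes of like level. Both depleted libraries lay below both controls for 33 members and above both for 6, against 32.2% and 36.7% of all genes and 54.2% and 16.0% of genes of like level. With counts scaled to library totals and no TMM factors, the all-gene median was 0.25 instead of 0.06 and the member median -0.0046, with 4 members higher and 5 lower (Ddx42, Ddx19a, Ddx17, Ddx23 and Dhx9), and the share of all genes that fell was then 6.57%. With either control library left out, 0 members rose, and those that fell were Ddx42 and Ddx19a without Ubc9 control library 1 and Ddx42 alone without library 2, against 4.45% and 3.93% of all genes. Without Ubc9-depleted library 1, 1 rose and 13 fell (19.0% and 15.3% of all genes, with 37 members below 0), Ddx58, Ddx11, Ddx27, Ddx31, Ddx47 and Dhx37 losing their calls, and without Ubc9-depleted library 2, 3 rose and 34 fell (41.8% and 22.9%).

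**Figure D2:**
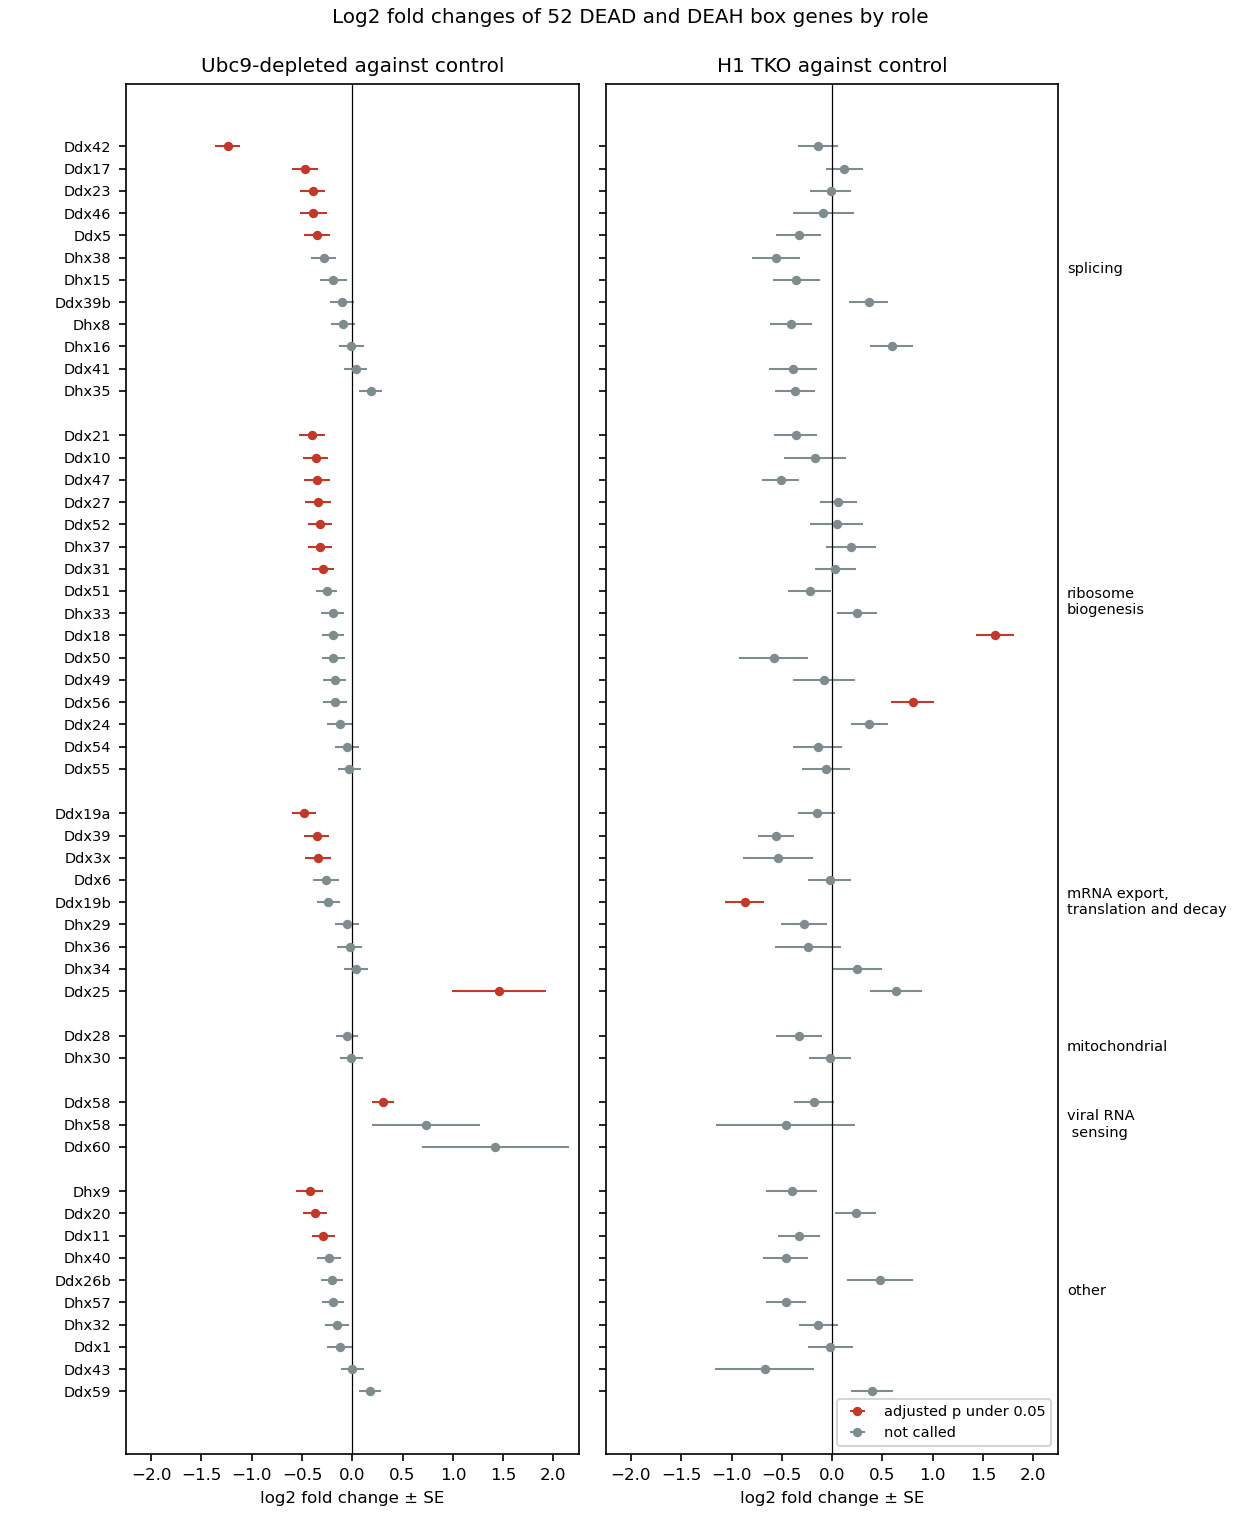
Log2 fold change of each member, case over control, in the Ubc9 comparison and the H1 comparison, grouped by function; points are edgeR estimates, bars their SE, and red points passed at an adjusted p under 0.05. Ddx42 stands at -1.24 on the Ubc9 side and Ddx18 at 1.62 on the H1 side.

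Of the 12 splicing helicases 5 fell (41.7%) and 0 rose after Ubc9 depletion, with a median log2 change of -0.24. Of genes of like level 26.8% fell and 7.82% rose, with a median of -0.15. With library totals 3 of the 12 were lower and 1 higher, with a median of -0.05. Of genes of like level 12.3% were then lower and 19.4% higher, with a median of 0.04. Ddx17 stood at 699 and 708 CPM in the controls and 488 and 529 CPM after depletion, a log2 change of -0.47 ± 0.13 (adjusted p = 0.0057). Its paralogue Ddx5 went from 1293 and 1378 CPM to 1028 and 1070 CPM (-0.35 ± 0.13, adjusted p = 0.036). Neither pair of groups overlapped. A pseudogene, Gm12183, holds most of the 22.7% of Ddx5 words that recur elsewhere. Ddx23, the helicase that lets U6 replace U1 at the 5′ splice site, stood at 198 and 204 CPM in the controls and 143 and 163 CPM after depletion (-0.39 ± 0.12, adjusted p = 0.0147). Ddx46, which acts with SF3B when the U2 particle joins the branch site, went from 354 and 334 CPM to 240 and 286 CPM (-0.39 ± 0.13, adjusted p = 0.022). The DEAH helicases that drive the later steps of the spliceosome did not pass: Dhx16 had a log2 change of -0.01, Dhx38 of -0.28, Dhx8 of -0.09, Dhx15 of -0.19 and Dhx35 of 0.18. Ddx41, which joins the catalytic spliceosome, had a change of 0.04.

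Of the 16 ribosome biogenesis helicases 7 fell (43.8%), 0 rose and all 16 had a change below 0, with a median of -0.22. Of genes of like level 26.8% fell, 7.82% rose and 72.4% had a change below 0, with a median of -0.15. With library totals 10 of the 16 were below 0, the median was -0.03 and 0 fell. Genes of like level then had a median of 0.04, and 12.3% fell. Without Ubc9-depleted library 1, 13 of the 16 were below 0 and fewer fell, with a median of -0.17 (-0.11 over genes of like level). Ddx21 was the highest of them, at 688 and 778 CPM in the controls and 553 and 558 CPM after depletion (-0.40 ± 0.13, adjusted p = 0.018). Its paralogue Ddx50 stood at 75.3 and 79.3 CPM in the controls and 66.0 and 69.8 CPM after depletion (-0.19 ± 0.11, adjusted p = 0.20). The groups did not overlap for either. Ddx10, Ddx47, Ddx52 and Dhx37, which belong to the assembly of the small subunit, fell by 0.37, 0.35, 0.32 and 0.32 on the log2 scale. Ddx27 and Ddx31, of the large subunit, fell by 0.34 and 0.29. Ddx54 and Ddx55, also of the large subunit, had changes of -0.05 and -0.03 and did not pass. Changes of Ddx18, Ddx24, Ddx49, Ddx51, Ddx56 and Dhx33 lay between -0.26 (Ddx51) and -0.12 (Ddx24) and did not pass either.

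Of the 9 helicases of export, translation and decay 3 fell (33.3%) and 1 rose (11.1%), against 26.8% and 7.82% of genes of like level. Ddx19a, which releases mRNA at the cytoplasmic face of the nuclear pore, stood at 71.7 and 79.9 CPM in the controls and 52.5 and 56.1 CPM after depletion (-0.48 ± 0.12, adjusted p = 0.0018). Its neighbour and paralogue Ddx19b, from 111003188 to 111031751 on chromosome 8, went from 109 and 114 CPM to 91.5 and 97.2 CPM (-0.24 ± 0.12, adjusted p = 0.11). The groups did not overlap for either gene. Ddx19a shares 33.3% of its 50-base words with Ddx19b, so counts of the 2 genes may not be fully separate. Ddx3x went from 1218 and 1309 CPM to 978 and 1021 CPM (-0.34 ± 0.13, adjusted p = 0.042), and Ddx39 from 180 and 213 CPM to 152 and 155 CPM (-0.35 ± 0.13, adjusted p = 0.030). Exons of Adgre5 on the other strand cover 17.4% of Ddx39. Ddx39b, counted above with the splicing helicases, stood at 140 and 138 CPM in the controls and 124 and 135 CPM after depletion. It did not pass (-0.10 ± 0.12, adjusted p = 0.52). Dhx29, which helps the small subunit scan structured leaders, Dhx36, which unwinds G-quadruplexes, and Dhx34, of nonsense-mediated decay, had changes of -0.06, -0.03 and 0.04. Ddx6, a repressor of translation in P-bodies, had a change of -0.26 (adjusted p = 0.11).

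The member of this group that rose was Ddx25, a testis helicase of germ cell mRNA storage. Its level was 0.875 and 0.804 CPM in the Ubc9 controls and 2.49 and 2.12 CPM after depletion, with no overlap (log2 change 1.46 ± 0.47, adjusted p = 0.018). The call was lost without Ubc9 control library 1 (adjusted p = 0.31) or library 2 (0.389), within a range of 0.000151 to 0.389 over 11 alternatives. Among the 3 sensors of viral RNA, Ddx58, which encodes RIG-I, rose from 29.3 and 29.6 CPM to 36.7 and 36.0 CPM (0.31 ± 0.11, adjusted p = 0.027), and it passed in 3 of 11 alternative analyses. Dhx58, which encodes LGP2, had 1.01 and 0.869 CPM in the controls and 1.79 and 1.34 CPM after depletion, and did not pass (0.73 ± 0.54, adjusted p = 0.30). Ddx60 stood at 0.309 and 0.608 CPM in the controls and 2.10 and 0.354 CPM after depletion. Its high value came from Ubc9-depleted library 1 alone, the groups overlapped, and the log2 change of 1.42 (adjusted p = 0.13) was -0.37 without that library. The median of the 3 sensors was 0.73, and 0.29 without that library, when 0 passed. The mitochondrial helicases Ddx28 and Dhx30 had changes of -0.05 and -0.01.

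Among the other 10 members 3 fell (30.0%), against 26.8% of genes of like level. Dhx9 stood at 1051 and 1154 CPM in the Ubc9 controls and 776 and 868 CPM after depletion, with no overlap (-0.42 ± 0.13, adjusted p = 0.013). Ddx20, the Gemin3 protein of the SMN complex that assembles splicing particles, fell by 0.37, and Ddx11, a DNA helicase of sister chromatid cohesion, by 0.29. Ddx1, of the tRNA ligase complex, had a change of -0.12, and Ddx43, a germline helicase, of 0.00. Dhx32, at 84.5 and 87.3 CPM in the controls and 73.1 and 81.3 CPM after depletion, had a change of -0.15 and its relative Dhx15, at 406 and 424 CPM and 324 and 404 CPM, of -0.19. Neither passed, nor did Dhx40 (-0.23), Ddx26b (-0.20), Dhx57 (-0.19) and Ddx59 (0.17).

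**Figure D3:**
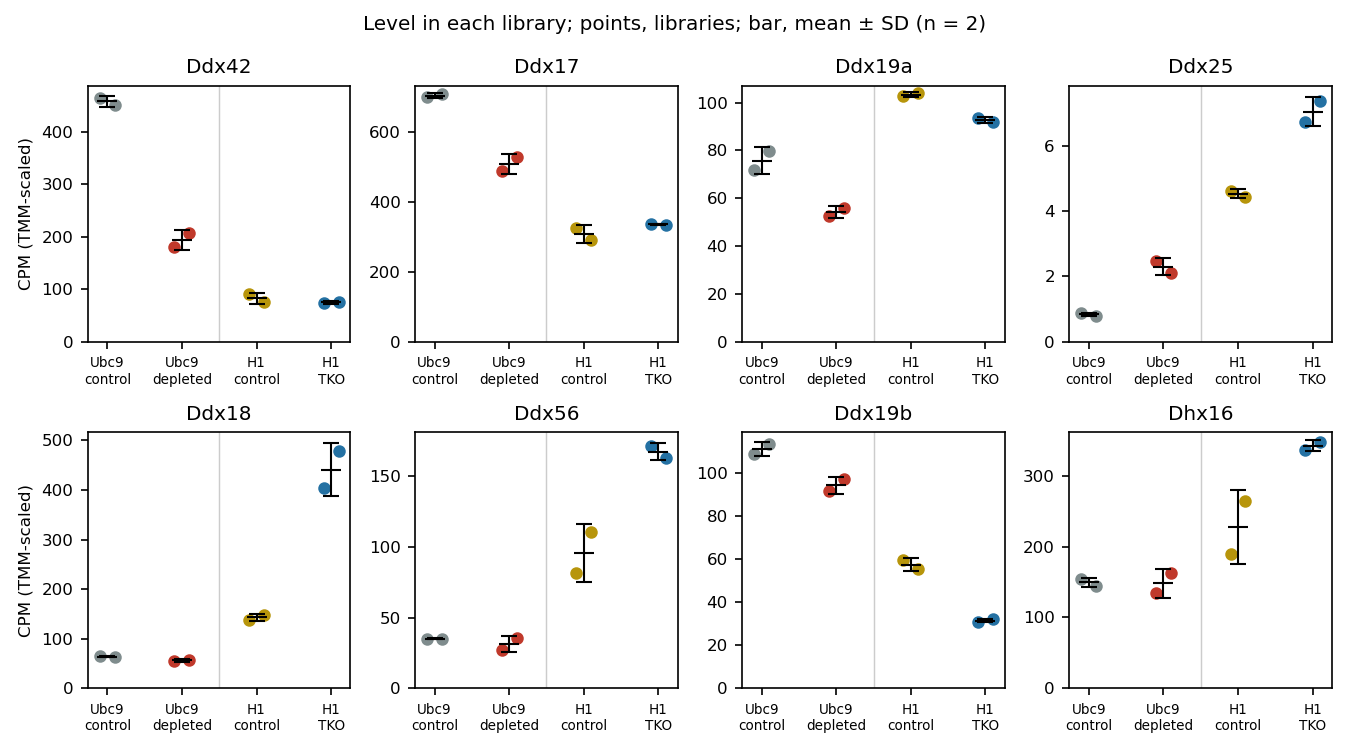
Level of 8 members in every library (CPM, TMM-scaled, linear axis from 0); points are libraries, bars the mean and SD of 2. Ddx42 drops from 465 and 451 to 181 and 207 CPM with Ubc9 depletion, and Ddx18 stands at 403 and 478 CPM in H1 TKO against 138 and 148 CPM in its controls; the vertical line separates comparisons made with different kits.

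The H1 comparison asks what the loss of 3 linker histones changes. Ddx18, a helicase of large-subunit assembly, rose most in the family. It stood at 138 and 148 CPM in the H1 controls and 403 and 478 CPM in H1 TKO. The groups were well separated, at 143 ± 7.59 and 441 ± 52.9 CPM, so that the level was 3.08-fold higher in H1 TKO. The log2 change was 1.62 ± 0.19 (edgeR, adjusted p = 0.0022), and it passed in 11 of 11 alternative analyses, with changes from 1.50 to 1.72 and adjusted p-values from 1.61e-41 to 0.0209. Ddx18 lies on chromosome 1, from 121553835 to 121567989 on the - strand, and 62.7% of its 50-base words recur in other genes, most of them in the pseudogene Gm16433. The value is therefore uncertain as to which copy gave the reads.

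Ddx56, another large-subunit helicase, rose from 81.3 and 110 CPM in the H1 controls to 172 and 163 CPM in H1 TKO, with no overlap (0.80 ± 0.21, adjusted p = 0.043). Ddx19b fell from 59.7 and 55.2 CPM to 30.9 and 32.0 CPM, again with no overlap (-0.87 ± 0.20, adjusted p = 0.025). Both calls were lost without H1 TKO library 1 (adjusted p = 0.473 for Ddx56 and 0.435 for Ddx19b) or library 2 (0.405 and 0.436). Over 11 alternatives the adjusted p ran from 1.56e-08 to 0.473 for Ddx56 and from 3.83e-10 to 0.436 for Ddx19b. Ddx19a stood at 103 and 104 CPM in the controls and 93.8 and 92.0 CPM in H1 TKO, and did not pass (-0.15 ± 0.18, adjusted p = 0.61). These were all the calls: of 51 members tested 2 rose and 1 fell, against 8.59% and 8.43% of the 14800 genes tested and 6.64% and 8.03% of 7172 other genes of like level. The like-level range here was 14.0 to 292 CPM, and of the 41 members within it 2 rose and 1 fell. The median log2 change was -0.14 over members, -0.02 over all genes and -0.04 over genes of like level. Both H1 TKO libraries lay above both controls for 12 members and below both for 18, against 31.4% and 30.6% of all genes and 28.5% and 30.9% of genes of like level. Ddx60 was not tested, with 0.131 CPM in H1 control library 1 and 0 counts in the other 3, which allows up to 0.0582 CPM in H1 control library 2 and 0.0685 and 0.0458 CPM in H1 TKO libraries 1 and 2, for counting error only.

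**Figure D4:**
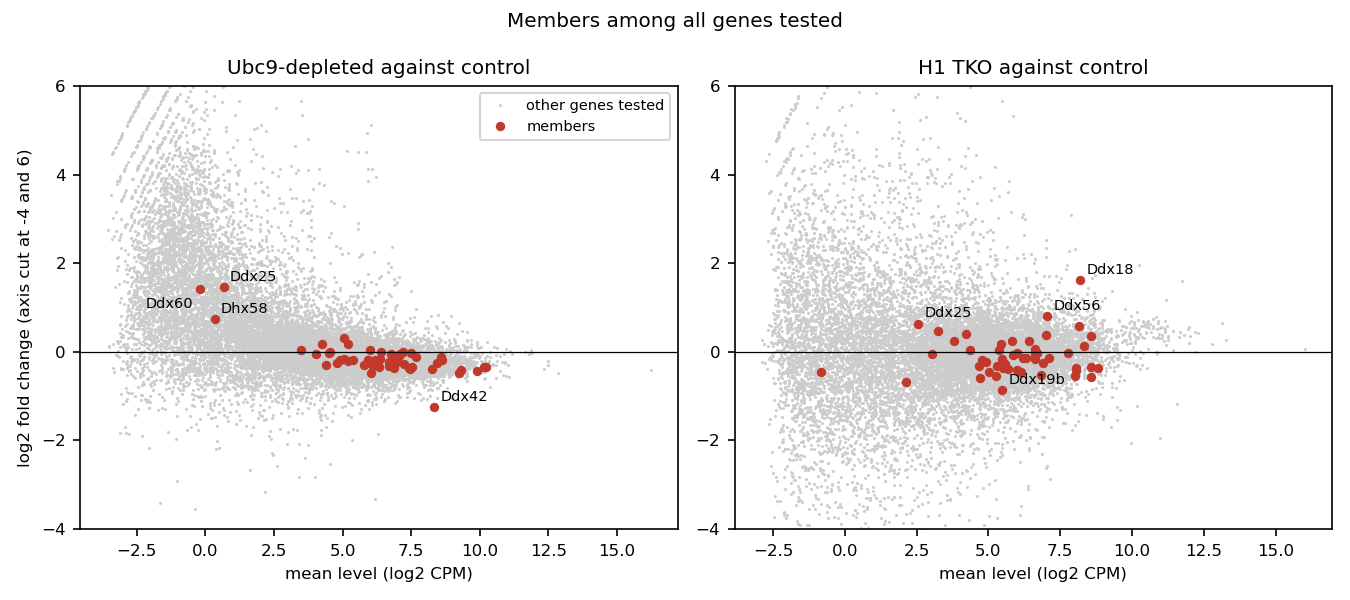
Log2 fold change against mean level (log2 CPM) for all genes tested (grey) and the helicase members (coloured), in the Ubc9 comparison (16499 genes) and the H1 comparison (14800 genes). The vertical axis is cut at -4 and 6, so genes beyond are not drawn. Ddx42 (-1.24) is the lowest member on the left and Ddx18 (1.62) the highest on the right.

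The 48 members that did not pass in the H1 comparison had changes from -0.67 (Ddx43) to 0.64 (Ddx25). Of the splicing helicases 0 of 12 passed, with a median of -0.24 (-0.04 over genes of like level). Dhx16, which starts the first catalytic step, came nearest. It stood at 190 and 264 CPM in the H1 controls and 337 and 348 CPM in H1 TKO (0.59 ± 0.21, adjusted p = 0.11). The count of 0 did not hold with an H1 control left out. Ddx46 then had a change of 0.44 without library 1 and -0.48 without library 2. Ddx5 stood at 497 and 347 CPM in the controls and 348 and 323 CPM in H1 TKO, and Ddx17 at 326 and 291 CPM and 337 and 334 CPM, with changes of -0.33 and 0.12. Ddx21 and Ddx50 had changes of -0.36 and -0.58. Ddx21 went from 346 and 247 CPM to 238 and 223 CPM, while for Ddx50 the groups overlapped, at 40.8 and 21.3 CPM and 24.7 and 16.9 CPM. Ddx39, at 434 and 473 CPM in the controls, stood at 297 and 318 CPM in H1 TKO (-0.56 ± 0.18, adjusted p = 0.077), and Ddx39b, at 295 and 368 CPM, stood at 423 and 430 CPM (0.36 ± 0.19, adjusted p = 0.25). Neither pair of groups overlapped. Dhx15 and Dhx32 had changes of -0.35 and -0.14. Ddx25 stood at 4.63 and 4.44 CPM in the controls and 6.73 and 7.37 CPM in H1 TKO, with no overlap and no call (0.64 ± 0.26, adjusted p = 0.14).

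The 2 H1 control libraries differed from each other more than the 2 H1 TKO libraries did. The log2 ratio of control library 1 over library 2 ran from -0.92 for Ddx49 to 1.48 for Ddx43 over 51 members, with an SD of 0.53, and 3 members (Ddx43, Ddx3x at 1.15 and Dhx36 at 1.07) differed by over 2-fold. In the H1 TKO pair the SD was 0.18 and 0 members differed by over 2-fold. Across the 51 members, which share both libraries and are not independent replicates, the control ratio followed transcript GC content with a Pearson r of -0.88, against -0.52 over all 14800 genes and -0.14 over members in the H1 TKO pair. Ddx3x, at 41.0% GC, had 422 CPM in control library 1 and 190 CPM in library 2, on either side of 220 and 203 CPM in H1 TKO. Ddx49, at 58.3% GC, had 40.6 and 77.1 CPM, on either side of 55.5 and 55.9 CPM, and 29.8% of its exonic length overlaps Homer3 on the other strand. Without H1 control library 1, 13 members were higher and 13 lower, with 23.4% and 22.8% of all genes, and without library 2, 10 were higher and 19 lower, with 25.8% and 26.1%. With offsets for GC content fitted per library, 4 were higher (Ddx18 at 1.53, Ddx56 at 0.81, Dhx16 at 0.68 and Ddx39b at 0.38) and 9 lower, with Ddx19b at -0.94 and Ddx39 at -0.58 first among them, and the shares of all genes were 17.6% and 18.5%. In the Ubc9 pairs the member ratios had SDs of 0.17 (controls) and 0.39 (depleted), with r of 0.50 and -0.25 against GC content. The median member ratio was -0.017 in the controls and -0.12 in the depleted pair, where most members were lower in library 1. Over all genes the medians were -0.009 and 0.02. The only member over 2-fold there was Ddx60, at 2.50 in the depleted pair, and the SD and r of that pair include it.

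**Figure D5:**
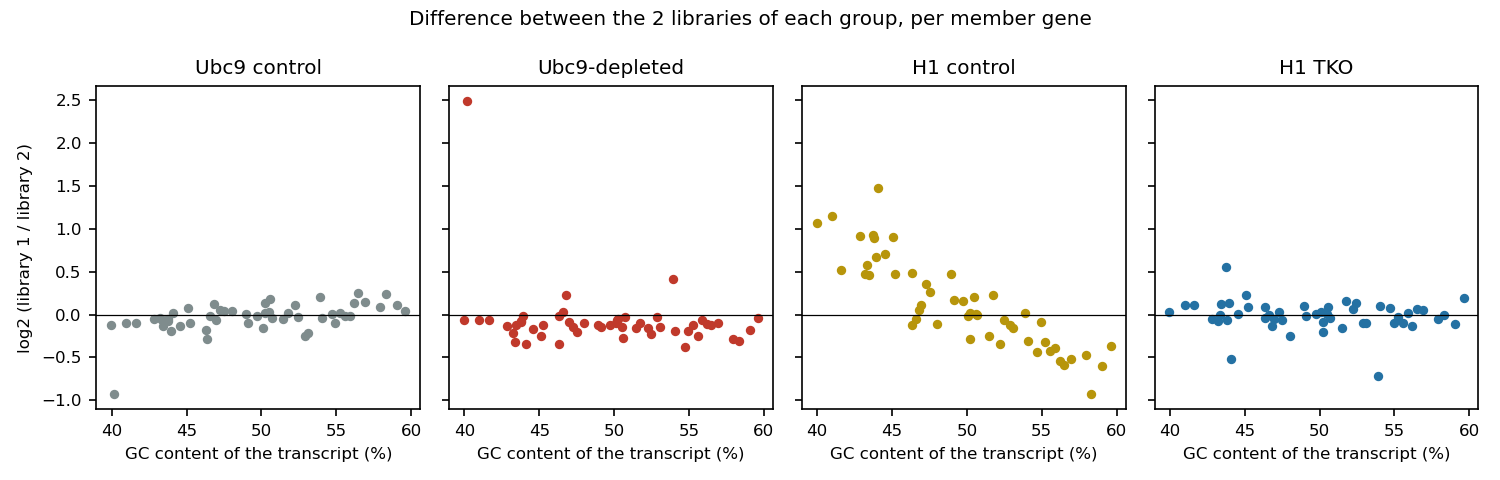
Log2 ratio of library 1 over library 2 within each group (vertical axis) against the GC content of the transcript in percent (horizontal axis), 1 point per member. The H1 control points slope from above 1 near 40% GC to -0.92 at 58.3% GC. In the other 3 groups most points lie nearer 0, with those of the Ubc9-depleted pair mostly below it (median -0.12). Further out are Ddx60 in both Ubc9 panels and Dhx58 (-0.72), Ddx50 (0.55) and Ddx43 (-0.52) in the H1 TKO panel.

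The difference of the log2 changes (Ubc9 minus H1) was tested in 1 fit of all 8 libraries. The 2 comparisons also differ in library kit and in the source of the cells. A different response to the perturbations cannot be told apart from these. Of 52 members 0 had a higher and 3 a lower difference, against 8.08% and 6.43% of 16974 genes and 5.82% and 9.11% of genes of like level. Ddx18 differed by -1.84 ± 0.23 (edgeR, adjusted p = 5.5e-04) and passed in 14 of 14 alternative analyses. Its level in the Ubc9 comparison was 65.1 and 63.1 CPM in the controls and 54.2 and 58.0 CPM after depletion (-0.19 ± 0.11, adjusted p = 0.19). Ddx42 differed by -1.11 ± 0.24 (adjusted p = 0.013). In the H1 comparison it stood at 90.6 and 75.1 CPM in the H1 controls and 73.6 and 76.6 CPM in H1 TKO, where the groups overlapped. The difference for Ddx42 no longer passed without Ubc9-depleted library 1 (adjusted p = 0.0652) or H1 TKO library 2 (0.064), within a range of 2.12e-07 to 0.0652 over 14 alternatives. Ddx56 differed by -0.99 ± 0.27 (adjusted p = 0.032) and passed in 8 of 14. Its Ubc9 values were 35.2 and 35.0 CPM in the controls and 27.1 and 35.3 CPM after depletion, which overlap. For Ddx19a and Ddx19b, which were each called in 1 comparison, the differences were -0.34 ± 0.21 and 0.62 ± 0.21 and did not pass (adjusted p = 0.31 and 0.082).

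The partners of these helicases were read from lists of genes with other symbols, written with earlier results known. In the Ubc9 comparison 22 of 55 ribosome biogenesis factors fell (40.0%) and 0 rose. All 55 had a change below 0, with a median of -0.28. Of genes of like level to the helicases 26.8% fell, 7.82% rose and 72.4% were below 0, with a median of -0.15. Without Ubc9-depleted library 1, 51 were below 0 and the median was -0.21 (-0.11 over genes of like level). With library totals 7 fell (12.7%, against 12.3% of genes of like level), 40 of the 55 were below 0 and the median was -0.09 (against 0.04). Fewer fell without Ubc9 control library 1 or library 2, and more without Ubc9-depleted library 2. The medians were then -0.31, -0.30 and -0.41, and -0.19, -0.17 and -0.29 over genes of like level. The lowest p-values belonged to Polr1a, the largest subunit of RNA polymerase I, at 285 ± 9.83 CPM in the controls and 150 ± 17.7 CPM after depletion (-0.92 ± 0.13, adjusted p = 1.7e-06), its second subunit Polr1b (-0.54) and Nol9 (-0.56), a kinase of pre-rRNA processing. In the H1 comparison 0 of the 55 passed, 3 had an unadjusted p under 0.05 in edgeR, and DESeq2 called 1. Of genes of like level 6.64% rose and 8.03% fell. There, more of the 55 were called without H1 control library 1 or library 2, as were more of all genes. The other lists below moved in the same manner. Fewer of their genes fell without either Ubc9 control, and more of the spliceosome proteins, for example, were called without either H1 control.

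Of 36 spliceosome proteins 2 rose (5.56%) and 11 fell (30.6%) after Ubc9 depletion, against 7.82% and 26.8% of genes of like level. With library totals 3 rose and 2 fell, against 19.4% and 12.3%. Cwc22, which brings the exon junction helicase Eif4a3 to the spliceosome, rose from 136 ± 3.74 to 268 ± 31.7 CPM (0.97 ± 0.13, adjusted p = 6.6e-07), and Isy1, a protein of the catalytic spliceosome, fell from 71.4 ± 4.39 to 50.8 ± 1.55 CPM (-0.49 ± 0.11, adjusted p = 0.0013). In H1 TKO 4 of the 36 rose (11.1%) and 1 fell (2.78%), against 6.64% and 8.03% of genes of like level. Isy1 was the 1 that fell, from 62.4 ± 2.28 to 18.3 ± 0.668 CPM (-1.77 ± 0.20, adjusted p = 0.0019), and Sf3a2 and Sf3b4, of the U2 particle that Ddx42 and Ddx46 serve, rose by 1.43 and 1.05 on the log2 scale. Of 19 G-patch cofactors 5 fell (26.3%) and 0 rose after Ubc9 depletion, with Gpatch4 at -0.42 and Son at -0.40. With library totals 2 fell (10.5%). Without Ubc9-depleted library 1 the median was -0.08, against -0.11 over genes of like level. In H1 TKO 0 of the 19 passed, with 3 at an unadjusted p under 0.05 in edgeR.

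Of 23 RNA helicases with other names 2 rose and 5 fell after Ubc9 depletion (5 and 2 with library totals). Their median was -0.11, and -0.06 without Ubc9-depleted library 1. For this list and those below, 7.82% of genes of like level to the helicases rose and 26.8% fell, and 19.4% and 12.3% with library totals. The shares of such genes in H1 TKO were 6.64% and 8.03%. Tdrd9, a piRNA pathway helicase of germ cells, rose from 2.40 ± 0.0131 to 4.99 ± 0.276 CPM (1.06 ± 0.25, adjusted p = 0.0017). Helz and Upf1, the central helicase of nonsense-mediated decay, fell by 0.55 and 0.45. In H1 TKO 1 of 22 rose and 1 fell: Dqx1 fell from 4.11 ± 1.15 to 1.04 ± 0.397 CPM (-1.99 ± 0.43, adjusted p = 0.023), and Tdrd9, the 1 that rose (adjusted p = 0.050), stood at 0.404 ± 0.0102 CPM in H1 TKO against 0.0164 ± 0.0232 CPM in its controls, which lies under the level of 3 counts. Of 15 export factors 1 rose and 5 fell after Ubc9 depletion, but with library totals 5 rose and 1 fell, and without Ubc9-depleted library 1 0 rose and 2 fell. Of 18 translation and P-body factors 2 rose and 6 fell, 4 and 3 with library totals and 4 and 4 without Ubc9-depleted library 1, with the translation inhibitor Pdcd4 at 0.80 and the decapping enzyme Dcp2 at -0.69. In H1 TKO 0 of the 15 and 1 of the 18 passed, the latter Cnot1, the scaffold of the main deadenylase complex, at -1.31. Of the genes of viral RNA sensing 13 of 16 were tested in the Ubc9 comparison, of which 2 rose and 3 fell (1 and 2 with library totals, 1 and 3 without Ubc9-depleted library 1). In H1 TKO 12 were tested, of which 2 rose and 3 fell as well. Mavs, the adaptor of Ddx58, fell by 0.50 after Ubc9 depletion.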

How the data were processed

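RNA counts per gene were analysed for 4 Ubc9 and 4 H1 libraries, in a table for each comparison. The counts are as deposited. The submitters' processing notes name cutadapt, STAR, HTSeq and DESeq2 with mm10. Not given in the sources used here are the role and version of each tool, the annotation and any use of strand. By the labels' protocols, Trizol RNA was selected on polyA beads and made into libraries with the ScriptSeq v2 kit (Ubc9) or the Lexogen SENSE V2 kit (H1).

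The members and the gene lists were chosen with earlier results of these data known. For each comparison, edgeR 4.0.16 (R 4.3.3) was run on the 4 libraries concerned, with filterByExpr (minimum count 10, minimum total 15), TMM factors and its quasi-likelihood F test. P-values were adjusted over all genes by Benjamini-Hochberg, with 0.05 as the threshold. The difference of effects used all 8 libraries. The biological coefficients of variation were 0.255 (Ubc9) and 0.239 (H1). SEs use the fitted weights and the moderated dispersion. Of 24421 symbols, 23376 matched GENCODE M21 (GRCm38, the build of mm10) by name and 667 by an older name, and all 52 members matched. These gave exonic length and GC content. Genes of like level are non-members between the 10th and 90th percentile of the members' mean level. They were not matched further in level, and members outside the range are still counted in the family and in each function. The code was tested on simulated data with 100 genes changed 2-fold and 100 changed 4-fold, and no difference between libraries that followed GC content. Of 2-fold changes put in, 79% were recovered in the Ubc9 design and 34% in the H1 design, and of 4-fold changes 91% and 95%. In the data 36.0% (Ubc9) and 17.0% (H1) of genes were called, far more than were changed in the simulation. These rates therefore check the code and are not rates for the members. A gene without a call may still differ in either comparison.

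Full values are given for up to 6 members per direction with the largest change among those that passed, for paralogue pairs and for the highest and lowest levels, and up to 3 genes of each list with the smallest p are named; other members are given by their change, some with values chosen after they were seen. Alternatives were RLE factors, library totals, DESeq2 1.42.0, a fit of all 8 libraries together, no filter, a replicate block, GC offsets (loess, span 0.5) and leaving out each library, where a lone library is assumed to vary like the other group. Promoter sequences are from RefSeq. A check of 1 targeted gene and the values of 1 listed gene are not reported here.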

Additional observations from a re-analysis of the deposited data

How the results depend on the processing

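Of the members, Ddx60 alone had libraries at 0 counts, and its level and that of Dhx58 and Ddx25 are limited by depth. In the Ubc9 comparison the reported 2 higher and 18 lower became 1 higher with DESeq2, RLE factors or no filter (20, 16 and 12 lower), 4 higher and 5 lower with library totals (median -0.0046), and 1 higher and 1 lower with all 8 libraries in 1 fit, where 6.48% and 2.85% of all genes were called. Leaving out 1 library gave 0 to 3 higher, 1 to 34 lower and medians of -0.3518 to -0.1424. In the H1 comparison the reported 2 higher and 1 lower became 2 and 2 with library totals (median -0.2343) or no filter, 3 and 2 with all 8 libraries, and 4 higher and 9 lower with GC offsets; leaving out 1 library gave 1 to 13 higher, 0 to 19 lower and medians of -0.1838 to -0.0353. The difference of effects, with 3 members called, gave 5 with DESeq2 or library totals, 10 with GC offsets and 1 to 14 with 1 library left out. Called directions turned with the H1 control left out: Ddx10 (0.3657 without library 1, -0.56 without library 2), Ddx46 (0.4383, -0.4753), Dhx36 (0.3939, -0.682) and Ddx49 (-0.4656, 0.4509) in the H1 comparison, and Ddx3x (-0.565, 0.6494) in the difference of effects. The causes were not tested.

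Over all genes, the Ubc9 comparison gave 3479 higher and 2467 lower calls (58.5% of calls higher), against 3983 and 1084 (78.6%) with library totals, 1100 and 483 (69.5%) with all 8 libraries, 8428 and 4610 without Ubc9-depleted library 2, and 1299 and 898 or 1230 and 795 without a control. The H1 comparison gave 1271 and 1247, against 2205 and 2158 with all 8 libraries, 2599 and 2739 with GC offsets, 636 and 532 or 617 and 488 without a TKO library and 3610 and 3505 or 3994 and 4038 without a control. The difference of effects gave 1372 and 1092, against 1914 and 635 (75.1% of calls higher, from 55.7%) with library totals, 1593 and 1775 with DESeq2 and 2330 and 2070 with GC offsets. Replicates share only a number: deviations of same-numbered libraries correlated at 0.0174 (Ubc9, 16499 genes) and 0.0565 (H1, 14800 genes) in 2 pairs each. With the replicate block the members called were 2 higher and 18 lower (median -0.1944) for Ubc9, 2 and 1 (median -0.132) for H1 and 3 for the difference, and the calls over all genes were 3160 and 2643, 1732 and 1729, and 1666 and 1318.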
